A study of Mus musculus with 8 samples.

Results

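S100a8, S100a9, Csf3r, Retnlg, Mpo, Elane, Ncf1, Cybb and Itgam, 9 genes widely used to recognise neutrophils, were read out by symbol from bulk RNA-Seq of mouse liver, and all 9 were present among the 25239 gene symbols counted. RNA came from whole livers of 8 adult male Smo fl/fl mice (Smo tm2Amc/J on a C57Bl6/J background), all fed a choline-deficient, amino acid-defined high-fat diet (CDA-HFD) for 6 weeks, a diet that produces steatohepatitis. Control mice (n = 4, titled Smo-Luc) received AAV8-TBG-Luciferase and Smo-KO mice (n = 4, titled Smo-Cre) received AAV8-TBG-Cre, each 1 week before sacrifice, so both groups carried the floxed alleles, a viral vector and the diet, and the control genotype is labelled WT. The TBG promoter is active in hepatocytes, so Smo, the signal-transducing protein of the Hedgehog pathway, was targeted in hepatocytes and not in leukocytes. The comparison asks whether neutrophil transcripts in a steatohepatitic liver differ once hepatocytes have lost Smo.

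Neutrophils are short-lived granulocytes that leave the bone marrow under granulocyte colony-stimulating factor (G-CSF), enter inflamed tissue by integrin-dependent adhesion and kill microbes with granule proteases, myeloperoxidase and an NADPH oxidase. Infiltrating neutrophils are a recognised feature of steatohepatitis. Granule enzyme genes such as Mpo and Elane are transcribed mainly in bone marrow precursors, whereas S100a8, S100a9, Csf3r and Retnlg are transcribed in mature cells, and Ncf1, Cybb and Itgam are shared with monocytes and macrophages.

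Each liver gave between 8203299 (Smo-KO 3) and 9999732 (control 4) reads on genes, and values are given as CPM, counts scaled to library size, with TMM factors. At this depth 3 reads correspond to 0.297 to 0.366 CPM, a floor that covers counting error only. The 95% intervals of log2 fold changes come from the fit over the 8 livers and include the spread between mice. Smo itself was measured at 8.17, 8.49, 8.74 and 8.21 CPM in controls 1 to 4 and at 5.67, 3.93, 4.27 and 4.37 CPM in Smo-KO 1 to 4. Every Smo-KO liver was below every control liver (exact permutation test over 70 assignments, two-sided p = 0.0286, the smallest this design can give), with a mean of 54.3% of the control mean. In the edgeR fit over all 12977 genes tested, the log2 fold change of Smo was -0.88 (SE 0.16, adjusted p = 0.0957), and DESeq2, the alternative test, called it (adjusted p = 0.0061). Smo RNA of cells other than hepatocytes is part of this value.

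None of the 9 neutrophil genes was shown to differ between Smo-KO and control livers beyond the spread between mice. S100a8, S100a9, Csf3r, Ncf1, Cybb and Itgam (6 genes) had enough reads for the edgeR quasi-likelihood test, whereas Retnlg, Mpo and Elane did not. Of the 6 tested, 4 had a positive and 2 a negative log2 fold change, with a median of 0.08 beside -0.00084 over all genes tested. With no filter on low counts all 9 were fitted, 7 had a positive log2 fold change and the median was 0.22, but the fitted values of Retnlg, Mpo and Elane rest on 0 to 7 reads per liver and depend on the prior count. The number called at an adjusted p under 0.05 was 0, but so was the number among all 12977 genes (0%), the lowest adjusted p in the whole fit being 0.0785. At an unadjusted p under 0.05, 0 of the 6 passed, against 13.8% of all genes tested (6.70% higher and 7.15% lower in Smo-KO). DESeq2 also called 0 of the 6, against 1.26% of all genes, and the 2 groups of livers did not separate for any of the 6, against 7.37% of all genes. The RNA is that of whole liver, in which a change in the number of neutrophils and a change in RNA per neutrophil cannot be told apart.

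**Figure D1:**
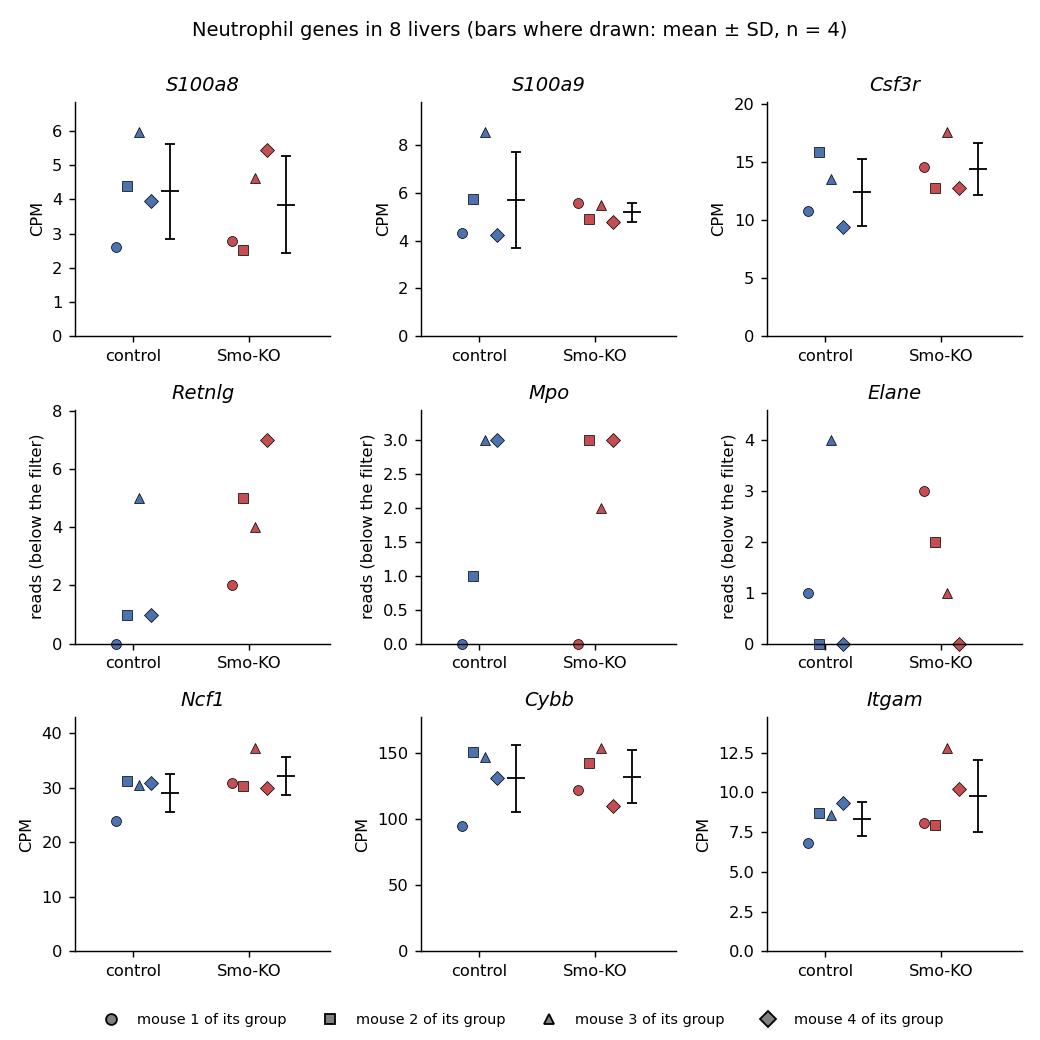
Level of each of the 9 neutrophil genes in 4 control (blue) and 4 Smo-KO (red) livers, as CPM with mean ± SD bars (n = 4) for the 6 genes tested and as plain reads for Retnlg, Mpo and Elane, which did not pass the filter on low counts. The groups overlap in every panel, for example 2.61 to 5.96 CPM in control and 2.51 to 5.44 CPM in Smo-KO livers for S100a8.

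S100a8 and S100a9 encode the calcium-binding subunits of calprotectin, a very abundant cytosolic protein complex of neutrophils, and are also transcribed by inflammatory monocytes. The 2 genes are neighbours (GRCm38, GENCODE release M21: S100a8 at chr3:90668978-90670035 on the plus strand, S100a9 at chr3:90692632-90695721 on the minus strand). S100a8 was measured at 2.61, 4.40, 5.96 and 3.96 CPM in controls 1 to 4 and at 2.78, 2.51, 4.63 and 5.44 CPM in Smo-KO 1 to 4. Both groups spanned about the same range, with means of 4.23 ± 1.38 and 3.84 ± 1.42 CPM (SD, n = 4 each). The log2 fold change was -0.15 (SE 0.29, edgeR adjusted p = 0.855), with a 95% interval of -0.79 to 0.48. These values rest on 23 to 60 reads per liver, and the part of counting error in their spread was not tested.

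S100a9 was measured at 4.31, 5.77, 8.55 and 4.25 CPM in controls 1 to 4 and at 5.57, 4.91, 5.49 and 4.80 CPM in Smo-KO 1 to 4. The Smo-KO livers lay close together (5.19 ± 0.394 CPM) and inside the wider control range (5.72 ± 2.01 CPM), which control 3 extended upward. The log2 fold change of -0.14 (SE 0.23, 95% interval -0.63 to 0.34, edgeR adjusted p = 0.814) depended on that liver: without control 3 it was 0.12 for S100a9 and 0.064 for S100a8. No direction can therefore be given for either calprotectin subunit.

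Csf3r encodes the receptor for G-CSF, the cytokine that drives neutrophil production and release (chr4:126024550-126044440, plus strand). Its level was 10.8, 15.8, 13.5 and 9.40 CPM in controls 1 to 4 and 14.5, 12.8, 17.6 and 12.8 CPM in Smo-KO 1 to 4. Smo-KO 3 was the highest liver and controls 4 and 1 the lowest, and the other livers were interleaved. The means were 12.4 ± 2.87 and 14.4 ± 2.26 CPM, with a log2 fold change of 0.22 (SE 0.17, 95% interval -0.15 to 0.59, edgeR adjusted p = 0.607). It was 0.11 without control 4 and also without Smo-KO 3, and 0.36 without control 2. The ligand gene Csf3 gave 2 reads in control 1, 1 read in Smo-KO 1 and 0 reads in the other livers.

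Retnlg encodes a secreted resistin-like protein of mature neutrophils (chr16:48872621-48874496, plus strand). It had 0, 1, 5 and 1 reads in controls 1 to 4 and 2, 5, 4 and 7 reads in Smo-KO 1 to 4. Controls 1, 2 and 4 were below every Smo-KO liver, but control 3 lay within the Smo-KO range (7 reads in all controls together and 18 in all Smo-KO livers; exact permutation test, two-sided p = 0.0857). When all genes with a read were tested, edgeR gave Retnlg an unadjusted p of 0.0646 and an adjusted p of 0.475.

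Mpo (myeloperoxidase, which makes hypochlorous acid; chr11:87793581-87804413, plus strand) and Elane (neutrophil elastase, a granule serine protease; chr10:79886247-79888215, plus strand) were at the limit of detection. Mpo had 0, 1, 3 and 3 reads in controls 1 to 4 and 0, 3, 2 and 3 reads in Smo-KO 1 to 4 (exact permutation test, two-sided p = 0.714). Elane had 1, 0, 4 and 0 reads in controls 1 to 4 and 3, 2, 1 and 0 reads in Smo-KO 1 to 4 (p = 0.743 in the same exact test). No difference was detectable at this depth for either enzyme, and none of the values exceeds 4 reads.

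Ncf1 and Cybb encode subunits of the phagocyte NADPH oxidase, the enzyme of the respiratory burst: Ncf1 the cytosolic organiser p47phox (chr5:134220053-134229625, minus strand) and Cybb the membrane-bound catalytic subunit gp91phox (chrX:9435252-9487771, minus strand). Ncf1 was measured at 23.8, 31.1, 30.4 and 30.9 CPM in controls 1 to 4 and at 30.8, 30.3, 37.3 and 29.8 CPM in Smo-KO 1 to 4. For Ncf1, 6 of the 8 livers lay between 29.8 and 31.1 CPM, with control 1 alone below them and Smo-KO 3 alone above. The log2 fold change of 0.14 (SE 0.11, 95% interval -0.11 to 0.39, edgeR adjusted p = 0.623) was 0.06 without control 1 and also 0.06 without Smo-KO 3.

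Cybb was measured at 94.6, 151, 147 and 131 CPM in controls 1 to 4 and at 122, 142, 154 and 110 CPM in Smo-KO 1 to 4. The group means were nearly the same, 131 ± 25.6 and 132 ± 19.8 CPM, and the log2 fold change was 0.01 (SE 0.15, 95% interval -0.30 to 0.33, edgeR adjusted p = 0.982). Without control 1 the log2 fold change was -0.11, and without Smo-KO 3 it was -0.07.

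Itgam encodes integrin alpha M (CD11b), the chain that pairs with the Itgb2 product to form the adhesion and complement receptor Mac-1 (chr7:128062640-128118491, plus strand). It was measured at 6.80, 8.70, 8.55 and 9.30 CPM in controls 1 to 4 and at 8.04, 7.96, 12.8 and 10.2 CPM in Smo-KO 1 to 4. Smo-KO 3 and 4 were above every control, but Smo-KO 1 and 2 were within the control range. The log2 fold change of 0.22 (SE 0.18, 95% interval -0.16 to 0.60, edgeR adjusted p = 0.616) was 0.07 without Smo-KO 3. Smo-KO 3 was the highest of the 8 livers for Csf3r, Ncf1, Cybb and Itgam and also had the fewest reads on genes, and control 1 was the lowest for Ncf1, Cybb and Itgam; the part of these livers' depth in the result was not tested.

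Some of these genes share sequence with others, which can move reads between them. Of all 100-base windows of the longest GENCODE transcript, 71.0% for Itgam also occur in transcripts of the overlapping same-strand model Gm49368, 6.45% for Mpo in Gm11505 and 3.88% for Ncf1 in Gtf2ird2, both of the latter on the opposite strand. Gm49368 and Gm11505 are not among the symbols counted here. For S100a8, S100a9, Retnlg, Elane and Cybb this share was 0.

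Levels of different genes can be compared only per transcript length, and on that scale (mean CPM per kb over the 8 livers) the order was Cybb 27.6, Ncf1 10.6, S100a9 10.5, S100a8 8.11, Csf3r 3.85, Itgam 1.93, Retnlg 0.566, Elane 0.147 and Mpo 0.0723. Cybb was above Ncf1 in 8 of 8 livers, S100a8 above Csf3r in 8 of 8 and Csf3r above Itgam in 8 of 8. Ncf1 and S100a9 did not differ beyond their spread, Ncf1 being the higher in 4 of 8 livers. S100a9 was above S100a8 in 7 of 8 livers, although their SDs overlapped (2.64 CPM per kb for each). For comparison, on the same scale the myelomonocytic lysozyme gene Lyz2 was at 351, the Kupffer cell lectin gene Clec4f at 134 and the T cell gene Cd3e at 2.43 CPM per kb.

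**Figure D2:**
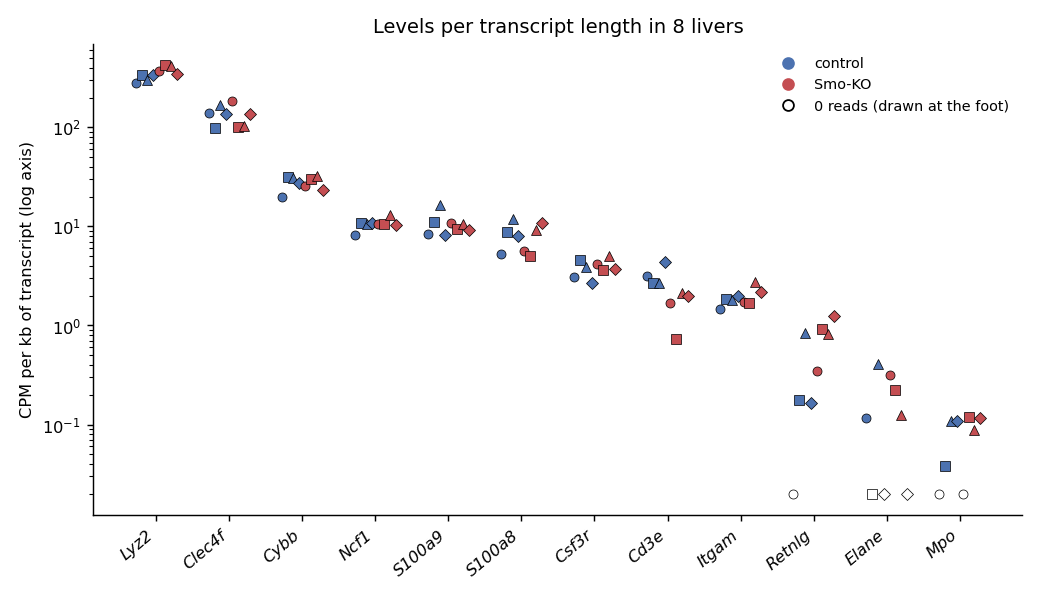
CPM per kb of the longest transcript (log axis) of the 9 neutrophil genes and, for comparison, Lyz2, Clec4f and Cd3e in each control (blue) and Smo-KO (red) liver; open symbols at the foot are livers with 0 reads. The mean falls from 27.6 for Cybb to 0.0723 for Mpo, and within each of the 9 genes the 2 groups overlap.

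Of 26 further mature neutrophil genes, 10 were tested, and their median log2 fold change was 0.08. At an unadjusted p under 0.05, 3 of the 10 passed in edgeR (2 with higher and 1 with lower values in Smo-KO livers), beside 13.8% of all genes tested, and neither edgeR nor DESeq2 called any of the 10 after adjustment. The classical surface marker Ly6g had 0 reads in every liver. That value is not evidence of absence by itself, since the 10 alpha- and beta-globin symbols counted, genes that residual blood should supply, were also at 0 reads in all 8 livers. The erythroid gene Alas2, in contrast, was at 111 ± 16.7 CPM in controls and 107 ± 16.6 CPM in Smo-KO livers. Hba-a1, Hba-a2, Hbb-bs and Hbb-bt share 54.8% to 74.5% of their 100-base windows with another globin gene, whereas Ly6g shares 0%. Whether the 0 reads of Ly6g and of the globin genes have the same cause was not tested. Cxcr2, the chemokine receptor that guides neutrophils, had 8, 13, 13 and 7 reads in controls 1 to 4 and 8, 9, 1 and 4 reads in Smo-KO 1 to 4. Among genes of the secondary granules, Ltf had 0 to 7 and Camp 0 to 2 reads per liver, and Ngp had 7 reads in control 3 and 0 in the other livers.

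Summed over the 26 genes, the mature neutrophil list was higher in every Smo-KO liver, with 863, 1137, 983 and 1019 CPM in controls 1 to 4 and 1191, 1266, 1177 and 1210 CPM in Smo-KO 1 to 4. Of this sum 79.6% was Lcn2, the gene of the iron-sequestering protein lipocalin-2, which hepatocytes also secrete in the acute phase. Lcn2 was at 668, 909, 775 and 834 CPM in controls 1 to 4 and 997, 992, 900 and 967 CPM in Smo-KO 1 to 4 (log2 fold change 0.28, SE 0.10, edgeR adjusted p = 0.267). Without Lcn2 the groups overlapped, at 204 ± 18.3 CPM in control and 247 ± 38.5 CPM in Smo-KO livers. Most of this remainder was again 1 gene, Wfdc21, at 145 ± 16.3 CPM in control and 189 ± 43.7 CPM in Smo-KO livers. Its groups overlapped (log2 fold change 0.38, SE 0.15, edgeR adjusted p = 0.300). The sum without Lcn2 is therefore mainly a reading of Wfdc21. On the precursor list only Chil3 of 7 genes was tested (log2 fold change -0.21, SE 0.52, edgeR adjusted p = 0.894), and Ctsg (cathepsin G), Ms4a3 and Fcnb never exceeded 1 read.

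**Figure D3:**
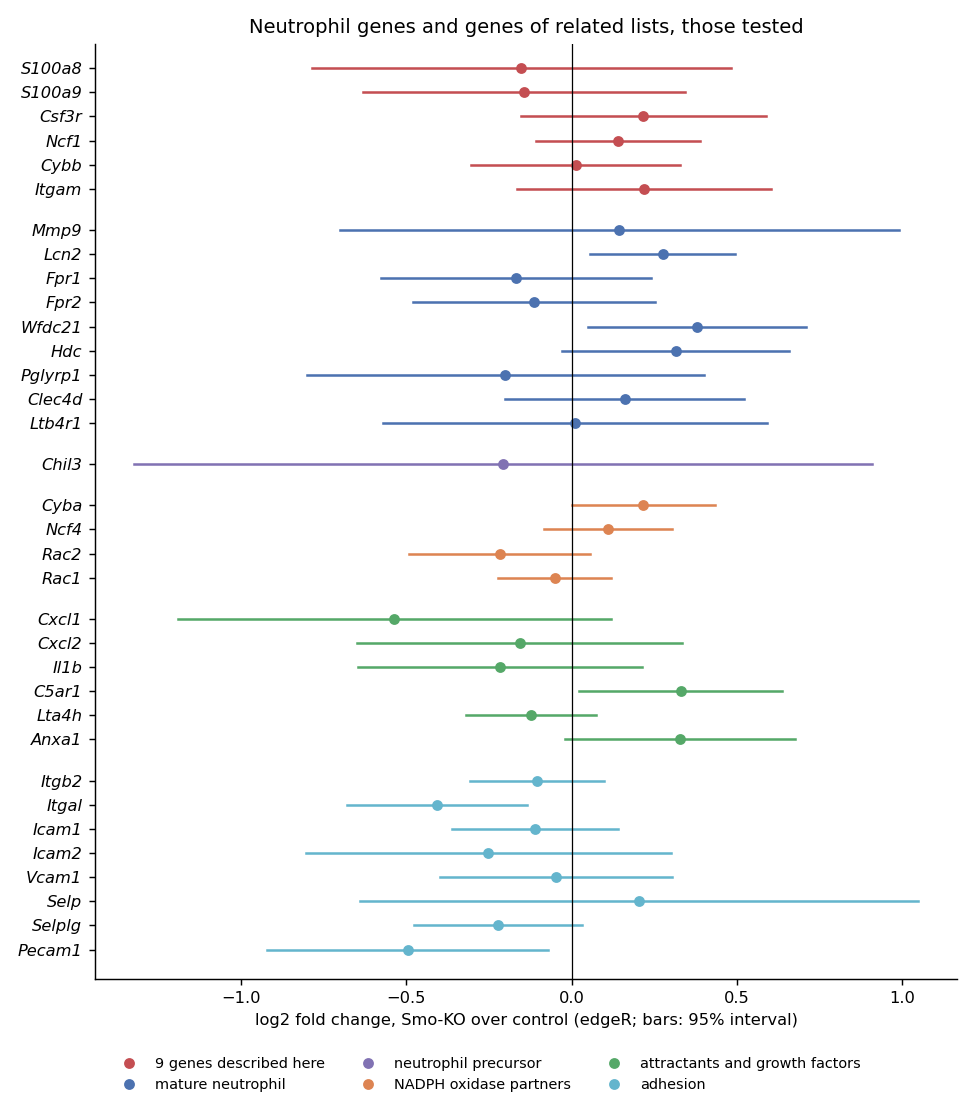
Log2 fold change (Smo-KO over control, points) with its 95% interval (bars) from the edgeR fit for the 6 neutrophil genes tested and for the tested genes, where reported here, of the mature neutrophil, precursor, NADPH oxidase, attractant and adhesion lists. The intervals of all 6 neutrophil genes include 0, the widest being that of S100a8 (-0.79 to 0.48).

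All 5 genes whose products work with Ncf1 and Cybb in the NADPH oxidase were tested; 2 had an unadjusted p under 0.05, both with higher values in Smo-KO livers (beside 6.70% of all genes tested in that direction), and none passed after adjustment (median log2 fold change 0.11). The most abundant partner, the small GTPase gene Rac1, which most cell types express, had a log2 fold change of -0.05 (SE 0.08, edgeR adjusted p = 0.813).

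Of 13 genes of neutrophil attractants, their receptors and growth factors, 6 were tested. Of these, 1 had an unadjusted p under 0.05, higher in Smo-KO (beside 6.70% of all genes tested in that direction and 13.8% in either). None passed after adjustment, and the median log2 fold change was -0.14. The most abundant was Cxcl1, a chemokine ligand of Cxcr2, at 62.6, 95.6, 27.9 and 33.4 CPM in controls 1 to 4 and 35.9, 37.6, 44.8 and 33.0 CPM in Smo-KO 1 to 4. Controls 1 and 2 were above, and the other controls near or below, the Smo-KO livers (log2 fold change -0.54, SE 0.30, edgeR adjusted p = 0.455). C5ar1, the receptor of complement C5a, had the lowest p (log2 fold change 0.33, SE 0.14, edgeR adjusted p = 0.327), at 10.01 ± 1.17 and 12.6 ± 1.76 CPM. The groups separated for 2 of the 5 genes of this list that had reads but too few to be tested by edgeR, beside 2.19% of all 5307 such genes. The chemokine gene Cxcl3 had 6, 6, 8 and 5 reads in controls 1 to 4 and 3, 1, 4 and 2 reads in Smo-KO 1 to 4. The 5-lipoxygenase gene Alox5 had 0 to 2 reads per control and 2 to 3 per Smo-KO liver, and separated only after scaling to library size. Both were named because their groups separated. Every gene that separates gets the same two-sided p of 0.0286 in the exact permutation test of CPM (not adjusted), so this p adds nothing. Csf2 and Il17a had 0 reads in every liver.

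Of 9 adhesion genes, 8 were tested, and 2 had an unadjusted p under 0.05, both with lower values in Smo-KO livers (beside 7.15% of all genes tested in that direction), none passing after adjustment (median log2 fold change -0.17). Itgal, the alpha chain of LFA-1, which T cells carry as well, was at 66.0, 69.4, 75.6 and 70.6 CPM in controls 1 to 4 and 67.8, 44.0, 53.8 and 46.9 CPM in Smo-KO 1 to 4 (log2 fold change -0.41, SE 0.13, edgeR adjusted p = 0.212), with Smo-KO 1 inside the control range. Icam1, the endothelial and hepatocyte ligand of LFA-1 and Mac-1, was the most abundant (log2 fold change -0.11, SE 0.12, edgeR adjusted p = 0.716).

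Other leukocytes were measured beside the neutrophil genes, since they share several of them. The NK and T cell list was lower in every Smo-KO liver, with a summed level of 29.6 ± 3.06 CPM in control and 16.6 ± 3.93 CPM in Smo-KO livers; all 5 of its 5 tested genes had an unadjusted p under 0.05 in edgeR with lower values (beside 7.15% of all genes tested) and none passed after adjustment, and the groups separated for 3 of these 5 (beside 7.37%). The most abundant, Cd8a, had a log2 fold change of -0.77 (SE 0.16, edgeR adjusted p = 0.116), and DESeq2 called Cd8a (adjusted p = 0.0143) and Cd3e (adjusted p = 0.0399). The lipid-associated macrophage list was higher in every Smo-KO liver (545 ± 53.6 against 658 ± 61.2 CPM), but only just, with control 4 at 594.7 and Smo-KO 4 at 595.7 CPM. Without its most abundant gene, Gpnmb, the groups overlapped. Of its 6 genes, 3 had an unadjusted p under 0.05 in edgeR and higher values (beside 6.70% of all genes tested). The lipid-sensing receptor gene Trem2 had the lowest p (log2 fold change 0.75, SE 0.13, edgeR adjusted p = 0.0957, DESeq2 adjusted p = 0.00016). Of 12 monocyte and macrophage genes 2 had an unadjusted p under 0.05, both higher in Smo-KO (beside 6.70% of all genes tested in that direction). The groups separated for 1, Lyz2 (beside 7.37%), which had a log2 fold change of 0.31 (SE 0.10, edgeR adjusted p = 0.219). The summed level overlapped (1377 ± 108 against 1514 ± 87.1 CPM). The part of these cells in the values of Itgal, Ncf1, Cybb and Itgam was not tested.

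The summed levels of the other lists overlapped between groups. The 6 Kupffer cell genes (most abundant Cd5l, lowest p Vsig4) had a median log2 fold change of -0.06, and the 8 pan-leukocyte genes (most abundant Laptm5, lowest p Fcer1g), whose sum was 630 ± 69.4 CPM in control and 665 ± 64.8 CPM in Smo-KO livers, one of 0.05. The dendritic cell list (most abundant Itgax, lowest p Xcr1) had a median of -0.02 and 0 of 6 genes at an unadjusted p under 0.05 (13.8% of all genes tested). Eosinophil, basophil and mast cell genes were sparse, with Epx and Fcer1a at 0 reads and 2 of 8 genes tested (Ccr3 both the most abundant and the lowest in p). Among B cell genes, Jchain, the most abundant, was the 1 of 5 tested with an unadjusted p under 0.05, with lower values in Smo-KO livers, and among hepatocyte genes Cps1 was the 1 of 7 (beside 7.15% of all genes tested in that direction), Alb being the most abundant; of the erythroid and platelet genes tested, Pf4 had the lowest p and none had an unadjusted p under 0.05.

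**Figure D4:**
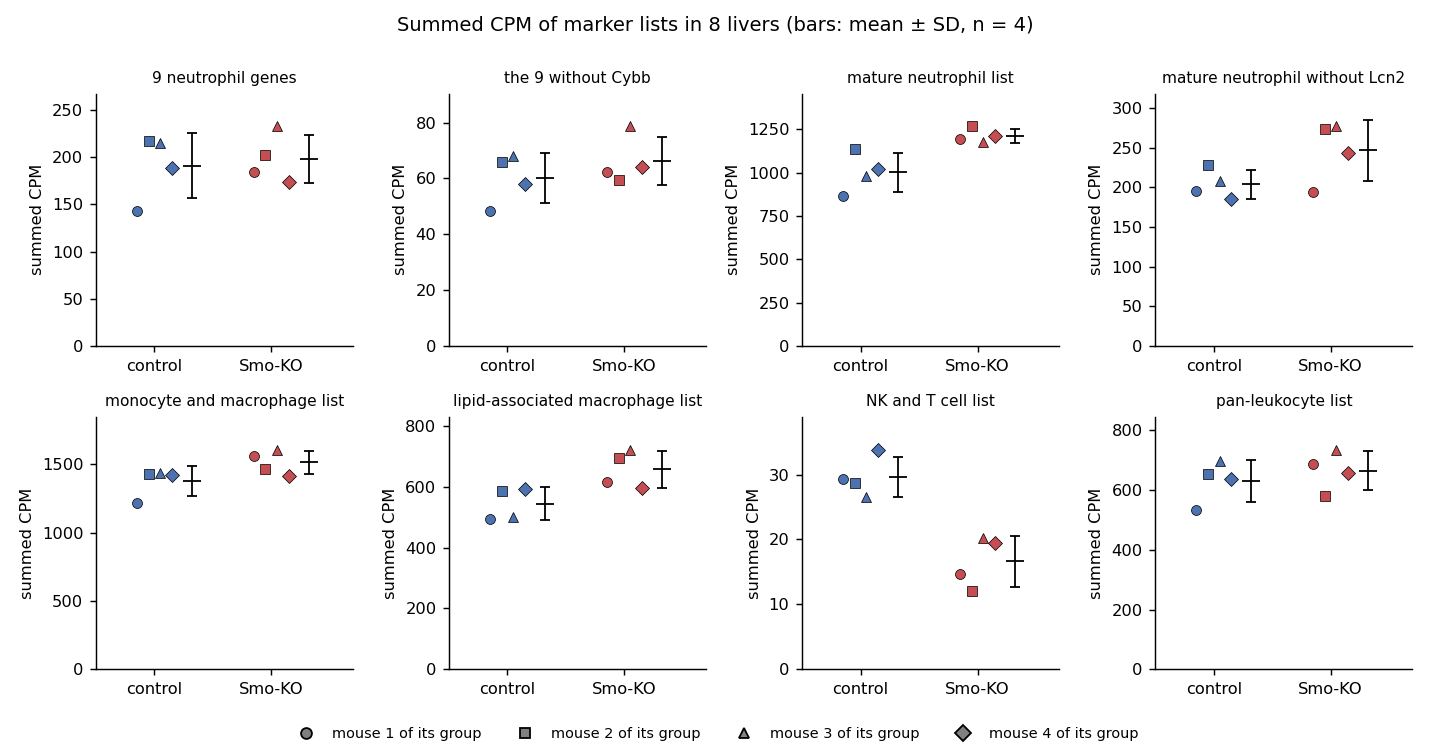
Summed CPM of marker lists in control (blue) and Smo-KO (red) livers, with mean ± SD bars (n = 4). The 9 neutrophil genes overlap between groups with or without Cybb, the mature neutrophil list separates with Lcn2 and overlaps without it, and the NK and T cell list is lower in every Smo-KO liver (16.6 ± 3.93 against 29.6 ± 3.06 CPM).

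Summed over the 9 neutrophil genes, the level was 143, 217, 215 and 189 CPM in controls 1 to 4 and 184, 202, 233 and 174 CPM in Smo-KO 1 to 4. Cybb made up 67.5% of this sum. Without Cybb the sums were 60.2 ± 8.95 CPM in control and 66.2 ± 8.54 CPM in Smo-KO livers, and the groups overlapped with and without it.

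For the 6 genes tested, the Pearson r of log2 CPM over the 8 livers was positive for all 15 pairs. It ranged from 0.0892 (S100a9 and Itgam) to 0.850 (Ncf1 and Itgam), with a median of 0.520. The r of pairs of all genes was not computed, so whether these values are particular to the 6 genes was not tested. The pairs share livers and genes and are not independent. Among 33 relations tested (the 15 pairs and each gene against 3 marker lists), only 1 pair, Ncf1 and Cybb, had an adjusted p under 0.05 (r = 0.807, exact permutation p = 0.0030, adjusted p = 0.0499; Spearman's rho = 0.810, p = 0.0218, adjusted p = 0.180). Its r was 0.524 without control 1 and Smo-KO 3, the livers farthest from the median of Ncf1, and 0.875 after centring on the group means. The call of this pair is fragile: no pair passed after centring, with library totals only, or in 6 of the 8 sets that lacked 1 mouse. For Ncf1 and Itgam, r turned from 0.850 (exact permutation p = 0.0319, adjusted p = 0.181; rho = 0.595, p = 0.132) to -0.425 without the same 2 livers, so that this relation rests on them. The relation of S100a8 and S100a9 did not pass (r = 0.541, exact permutation p = 0.156, adjusted p = 0.333; rho = 0.429, p = 0.299; r = 0.404 without control 1 and Smo-KO 2).

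For the relations with marker lists, each mean was taken over the tested genes of the list only. For the mature neutrophil list these are 10 of 26 genes, with Lcn2 among them and Cxcr2 not. Against the marker lists, the relation of Ncf1 with the mean of the monocyte and macrophage genes was also just under the threshold by r and not by rho (r = 0.915, exact permutation p = 0.0027, adjusted p = 0.0499; rho = 0.810, p = 0.0218, adjusted p = 0.180), with r = 0.510 when control 1 and Smo-KO 3 were left out and 0.911 after centring on the group means. For Csf3r, r was 0.795 with the mature neutrophil genes (exact permutation p = 0.0162, adjusted p = 0.149; rho = 0.857, p = 0.0107; r = 0.576 without the 2 farthest livers) and 0.743 with the monocyte and macrophage genes (exact permutation p = 0.0330, adjusted p = 0.181; rho = 0.929, p = 0.0022, adjusted p = 0.0737; r = 0.944 without the 2 farthest livers), so that which list it followed more closely depended on the measure. S100a9 likewise had r = 0.679 with the mature neutrophil and 0.483 with the monocyte and macrophage genes, but 0.592 and 0.907 without the 2 farthest livers. Cybb had 0.460 and 0.795, but 0.720 and 0.506 without them, and Itgam 0.552 and 0.732, but 0.206 and -0.019 without them. Ncf1 had a higher r with the monocyte and macrophage than with the mature neutrophil genes on each measure (0.915 against 0.495 over all livers, 0.510 against -0.143 without the 2 farthest), and S100a8 a higher r with the mature neutrophil genes (0.748 against 0.565, and 0.615 against 0.022). Whether any of these pairs of r differ was not tested. Against the Kupffer cell genes, r lay between -0.413 (Cybb) and 0.0685 (S100a9). Batches are not given in the labels. Centring on the group means removes the group difference only, so the correlations were not checked within batches.

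**Figure D5:**
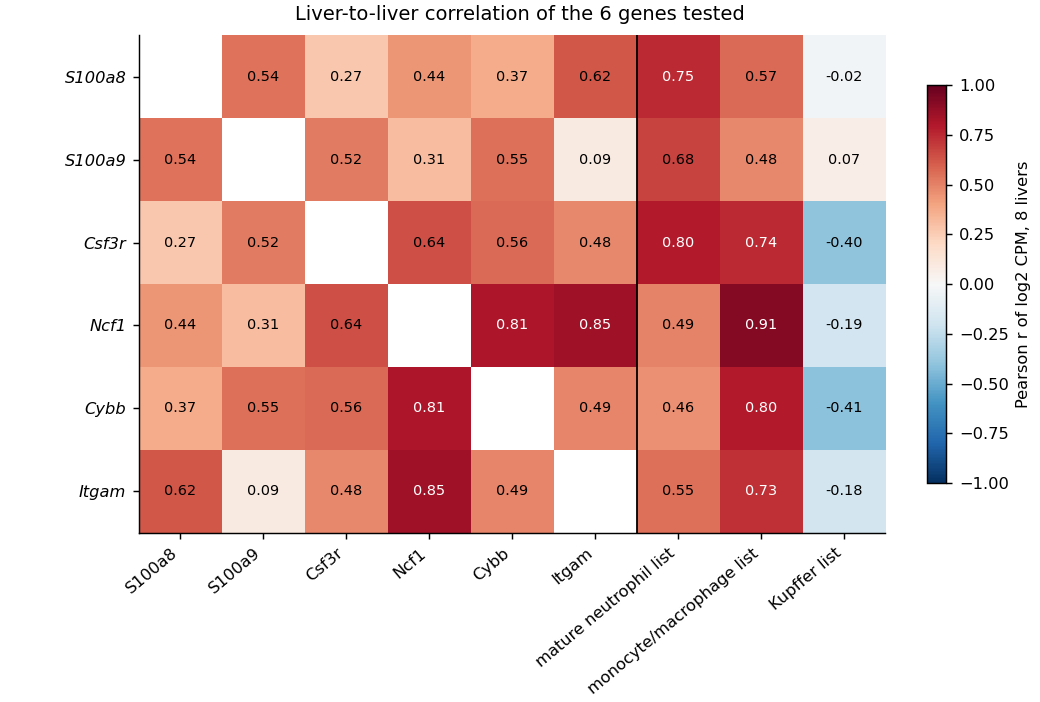
Pearson r of log2 CPM over the 8 livers for each pair of the 6 neutrophil genes tested (left of the line) and for each gene with the mean of the tested genes of the mature neutrophil, monocyte and macrophage, and Kupffer cell lists (right of the line). All 15 pairs are positive, and the highest r with a list is that of Ncf1 with the monocyte and macrophage genes (0.915).

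Outside these lists, the tested genes whose log2 CPM followed the mean of S100a8 and S100a9 most closely over the 8 livers were S100a10 (r = 0.938), Elmo1 (0.936), Slfn1 (0.927), Rbm43 (0.912), Kitl (0.911), Sh3rf1 (0.911), Mrpl50 (0.909), Med28 (0.909), Cmtr2 (0.908) and Ppp2r5c (0.908). They are the highest of nearly 12977 values of r computed from 8 livers, and are given as a description only.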

How the data were processed

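The authors deposited 1 list of read counts per gene symbol for each of the 8 livers. The submitters' processing notes name fastp, STAR 2.7.5, featureCounts 2.0.1 and GRCm38; the annotation and strand setting are not given in the sources used here. Entries that name no gene (no feature 7.56% to 9.68% of counted reads, ambiguous 2.45% to 2.61%) were left out. The labels number the mice but do not say how samples were prepared; no 2 libraries of a group agreed within sampling noise (chi-square per degree of freedom at least 7.76).

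Differential expression was fitted over all genes with edgeR 4.0.16 under R 4.3.3 (TMM factors, filterByExpr, glmQLFit, glmQLFTest, genotype only, Benjamini-Hochberg over 12977 genes), with DESeq2 1.42.0 as the alternative. The code was tested on simulated data. Standard errors follow from edgeR's F statistic. Log2 CPM used a prior count of 2. Single values and correlations were tested by exact two-sided permutation (scipy 1.17.1). Transcript lengths, positions and shared 100-base windows came from GENCODE M21.

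The 9 genes and the 15 marker lists were chosen with earlier results of these data known. Named were Smo, the 9 genes, each list's most abundant gene, its gene of lowest p and markers near 0, genes of the neutrophil lists whose groups did not overlap, and the 10 genes most like S100a8 and S100a9. Wfdc21 was named in addition, as the largest part of the mature neutrophil sum without Lcn2. Trac is not among the symbols, and 2 genes that the rule would name are not reported here. Alternatives (scaling, filters, DESeq2, replicate block, leaving out each mouse, threshold) are described at the end.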

Additional observations from a re-analysis of the deposited data

Results flagged for a closer look

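Of 54 groups of 4 livers examined for a single value far from the other 3, 5 had one, where chance gives about 2.7. Ncf1 was at 23.8 CPM in control 1, against 30.4 to 31.1 CPM in the other controls, and at 37.3 CPM in Smo-KO 3, against 29.8 to 30.8 CPM in the other Smo-KO livers. The same liver, control 1, was low for the summed monocyte and macrophage genes, at 1215 CPM against 1424 to 1437 CPM. The summed dendritic cell genes were high in Smo-KO 3, at 69.6 CPM against 52.8 to 55.6 CPM. Smo-KO 3 also had the fewest reads on genes of its group, 8203299 against 9367795 to 9543675.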

How the results depend on the processing

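In every alternative run, 0 of the neutrophil genes were called, and the lowest adjusted p of any of them was 0.407 (Itgam). The count of all genes called was 0 in edgeR, 61 without a filter on low counts (0 of the 9 neutrophil genes), 163 with DESeq2, 8 with the replicate block, 15 at an adjusted p under 0.1, and 0 to 78 over the 8 fits that each lacked 1 mouse (78 without Smo-KO 1, 5 without control 1, 4 without Smo-KO 3). Other scalings in the edgeR fit moved the median of all genes by little (to 0.0053 with RLE size factors and -0.0071 with library totals only, log2). The labels do not say that equal replicate numbers pair the mice; the correlations of their deviations were all positive but not all above 0.1 (0.104, 0.187, 0.0611 and 0.113), and controls 2, 3 and 4 but not control 1 correlated best with the Smo-KO mouse of their number, so the block was kept as an alternative. When mice were left out, the log2 fold change ranged from -0.37 to 0.064 for S100a8, from -0.26 to 0.12 for S100a9, from -0.11 to 0.092 for Cybb, from 0.11 to 0.36 for Csf3r, from 0.06 to 0.18 for Ncf1 and from 0.07 to 0.31 for Itgam, and the median of the 6 from -0.03 to 0.14; the sign turned for S100a8 (without control 3 or Smo-KO 2), S100a9 (without control 3) and Cybb (without control 1, Smo-KO 2 or Smo-KO 3). The 1 pair of genes called as varying together was 0 pairs with library totals only, 0 after centring on group means and 0 to 2 when a mouse was left out (0 without control 1, control 2 or any 1 Smo-KO mouse, 2 without control 3 or control 4); the cause was not tested. At 0 to 7 reads per liver, depth limits Retnlg, Mpo and Elane most.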
